A study of Mus musculus with 2 samples.

Results

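RNA for 40 skeletal muscle genes was examined in prostaspheres, which are spheres grown in Matrigel from single cells of the mouse urogenital sinus epithelium, the tissue that forms the prostate. They are 34 structural genes of the muscle fibre, for the sarcomere, excitation and energy supply, and 6 myogenic regulators. The genes were chosen by their role in muscle after the brightnesses and log2 ratios of these same arrays were known, so the levels and ratios that follow are a description and carry no test. All 40 were on the array, among 27827 genes with 41174 probes, and were covered by 77 probes. For each gene the brightest probe was read, by its mean log2 brightness over both arrays.

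Urogenital sinuses were taken from embryos at 16 dpc, the epithelial cells were grown for 6 days in Matrigel with dihydrotestosterone, and the spheres were then given 5 micromolar tamoxifen (TAM) or vehicle for 6 more days. Each of 2 arrays on 1 slide held 2 RNAs. The genotype comparison set wild-type C57/Bl6J cells with TAM (Cy5) against ER-Sox9flox/flox cells with TAM (Cy3). The treatment comparison set ER-Sox9flox/flox cells with vehicle (Cy5) against ER-Sox9flox/flox cells with TAM (Cy3). The ER-Sox9flox/flox cells carry 2 floxed copies of Sox9, a transcription factor of prostate development, and a Cre recombinase that TAM activates. The RNAs of the floxed cells with TAM are called Sox9-deleted here, and 1 such RNA was present on each array. The wild-type cells had TAM, with no ERCre named in their labels, and the vehicle cells had ERCre but no TAM. The labels give the genotype of both RNAs of the treatment comparison as Sox9 null, and the source names call each Cy5 RNA SOX9 and each Cy3 RNA Ctrl, so the titles, treatments and dyes were used to tell the RNAs apart. The study's methods name Rosa26ERCre mice, a line with the recombinase at the Rosa26 locus, which is active in most cell types and so is not limited to epithelium. The number of embryos or cultures in each RNA is not given in the sources used here, and the paper describes its sphere formation assay with cells of adult mice.

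Muscle fibres contract when thick filaments, built of myosin heavy and light chains, pull on thin filaments, built of actin, tropomyosin and the calcium-sensing troponins, between the Z discs of a sarcomere. Myogenic regulators such as Myod1 and Myog switch these genes on in precursor cells, which fuse into fibres. Embryonic and perinatal forms of many sarcomere proteins come first, and adult fast and slow forms replace them as fibres mature. The urogenital sinus holds an epithelium and a surrounding mesenchyme that forms smooth muscle, and striated muscle lies near it around the urethra.

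Several muscle genes belong to families of similar sequence, so the 60-base probes that read 2 pairs of relatives are shown, with capitals at the bases that differ between the members of a pair over their overlap. The files place the probes on the mouse genome build mm9. The Myh3 probe (embryonic myosin heavy chain) lies at chr11:66914857-66914916 and the Myh4 probe (adult fast myosin heavy chain) at chr11:67072804-67072863, both on the plus strand. They overlap over 55 bases, of which 40 (72.7%) are identical.
Myh3: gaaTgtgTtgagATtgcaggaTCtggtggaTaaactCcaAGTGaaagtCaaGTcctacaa
Myh4: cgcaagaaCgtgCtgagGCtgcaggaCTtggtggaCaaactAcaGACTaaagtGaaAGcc
The Tnnt2 probe (cardiac and embryonic troponin T) spans chr1:137747976-137748288 and the Tnnt3 probe (fast troponin T) spans chr7:149698500-149700262, both on the plus strand and both longer than 60 bases on the genome, so each crosses a splice junction. They overlap over 44 bases, with 29 (65.9%) identical.
Tnnt2: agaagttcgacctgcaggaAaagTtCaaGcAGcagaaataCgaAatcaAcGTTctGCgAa
Tnnt3: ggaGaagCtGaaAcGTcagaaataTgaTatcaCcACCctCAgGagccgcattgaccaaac
The members of each pair had different ratios on the arrays, as given further on. Binding of one gene's RNA to the other's probe was not tested.

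Promoters are shown for Acta1, which encodes skeletal actin, and for Myog, which encodes the regulator myogenin. They are the 250 bases before the start of the gene, from RefSeq on the build GRCm38.p6, at chr8:123894776-123895025 on the minus strand for Acta1 and at chr1:134289754-134290003 on the plus strand for Myog. Capitals mark matches to the E-box CANNTG, bound by myogenic regulators, to TATAAA, and to the CArG box, bound by serum response factor.
Acta1: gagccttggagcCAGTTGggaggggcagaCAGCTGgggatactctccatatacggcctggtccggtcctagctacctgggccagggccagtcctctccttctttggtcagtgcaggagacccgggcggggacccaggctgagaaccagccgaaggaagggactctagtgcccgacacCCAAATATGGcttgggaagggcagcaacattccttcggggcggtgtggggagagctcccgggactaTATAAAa
Myog: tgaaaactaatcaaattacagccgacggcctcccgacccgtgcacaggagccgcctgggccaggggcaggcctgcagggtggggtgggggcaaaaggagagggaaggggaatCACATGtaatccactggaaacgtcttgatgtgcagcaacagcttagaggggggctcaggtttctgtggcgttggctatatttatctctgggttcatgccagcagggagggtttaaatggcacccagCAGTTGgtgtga
Of the 40 genes, 32 had a promoter in the RefSeq table used, and Actn3, Chrnd, Myf6, Myod1, Neb, Tcap, Tnni2 and Tnnt3 had no entry. On either strand, the E-box was present in 23 of the 32 (71.9%), beside 69.3% of 27025 genes. The CArG box was present in 4 of the 32 (12.5%), Acta1, Actc1, Ldb3 and Myh4, beside 1.62% of all genes. A match to the pattern used for a MEF2 site was present in 5 (15.6%), Casq2, Myh1, Myh4, Myh8 and Ttn, beside 3.42% of all genes. Variants of that pattern were not counted, so genes not named, Myog among them, may still hold a site of this type. TATAAA was present in 8 (25.0%), beside 14.3%. A match describes the letters in the window and is not evidence of binding.

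Sox9 itself was read by 3 probes. Of these, 2 were higher in the Sox9-expressing RNA, with log2 ratios of 2.69 and 1.17 in the genotype and 2.37 and 1.27 in the treatment comparison, and 1 was lower, with -1.0 and -1.22. Which of the probes lie in the deleted part is not given in the sources used here.

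The 40 genes were seen most widely in the vehicle RNA and least widely in the wild-type RNA. By the scanner software's mark for a spot well above background, 38 of the 40 were detected in vehicle, 33 in the Sox9-deleted RNA of the genotype array, 29 in that of the treatment array and 16 in wild-type. Over all 27827 genes these shares were nearly level, at 55.1%, 54.4%, 55.7% and 52.5% in the same order. All 4 RNAs gave signal for 16 of the 40, beside 50.5% of all genes. Detection in vehicle but not in wild-type was found for 22 of the 40, beside 3.64% of all genes, and the opposite pattern for 0 of the 40, beside 1.04%. Only Myf5 and Pax7, regulators of the muscle precursor cell, were well above background in no RNA, beside 41.3% of all genes. Chrnd, Mef2c, Myh2, Myh7 and Ttn were well above background in vehicle alone. Each RNA came from whole cultures, so more cells of a type and more RNA per cell cannot be told apart.

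Ratios were summarised for the 33 of the 40 genes that were well above background in at least 1 RNA of each array, as were 15228 (54.7%) of all genes. The other 7 are the genes named just above, and their values are given with their groups. A gene had to be bright somewhere on each array to pass, so the 33 do not stand for all 40. In 17 of the 33, wild-type was not well above background, so the genotype ratio bounds the difference from one side. Each comparison was 1 array, so no ratio has a replicate check and no p-value is given. The spread between spots of 1 array was small, with a median SD of 0.0423 on the log2 scale over 245 probes with repeated spots, and it covers the array only. The closest to a repeat was the pair of Sox9-deleted RNAs, whose cultures were labelled alike.

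In the genotype comparison, 10 of the 33 genes were at least 2-fold lower in wild-type, beside 1.08% of all genes that passed, and 0 were at least 2-fold higher, beside 0.584%. In the treatment comparison, 23 of the 33 were at least 2-fold higher in vehicle, beside 1.73%, and 0 were at least 2-fold lower, beside 0.374%. The median log2 ratio of the 33 was -0.70 in the genotype comparison (range -3.03 to 0.91) and 1.24 in the treatment comparison (range 0.23 to 2.67), beside -0.01 and 0.01 over all genes. The same Sox9-deleted genotype stood under both ratios, and the muscle genes lay above it in vehicle and mostly below it in wild-type. Of the 33, 31 had a ratio below 0 on the first array and above 0 on the second, beside 18.7% of all genes. Of all 15228 genes, 18 (0.118%) were past 2-fold in these opposite directions, and 10 of the 18 were members of the list: Acta1, Atp2a1, Chrna1, Mb, Myh8, Myl1, Mylpf, Tcap, Tnnc2 and Tnni1. No gene of the 15228 was past 2-fold the other way round, higher in wild-type and lower in vehicle.

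**Figure D1:**
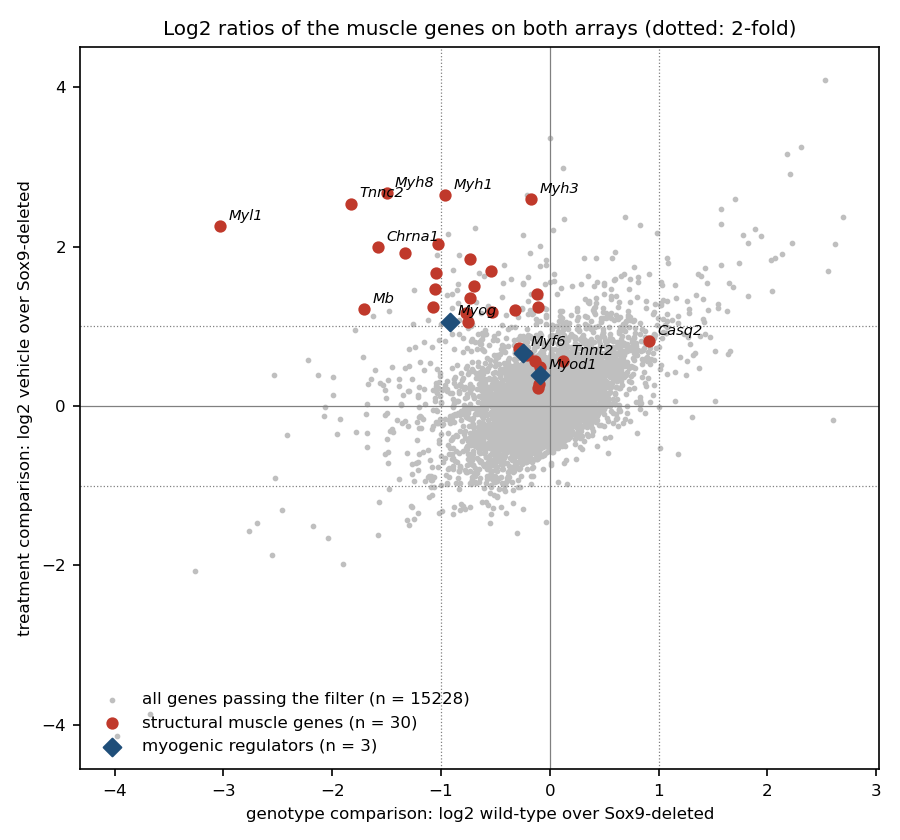
Log2 ratio of wild-type over Sox9-deleted RNA (genotype array, x axis) against log2 ratio of vehicle over Sox9-deleted RNA (treatment array, y axis) for the brightest probe of each of 15228 genes that passed the filter (grey), with 30 structural muscle genes (red circles) and 3 myogenic regulators (blue diamonds). Dotted lines mark 2-fold. The muscle genes lie at the upper left, with 31 of 33 below 0 on the x axis and 33 of 33 above 0 on the y axis, and Casq2 and Tnnt2 lie to the right of 0.

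Ordering the 4 RNAs by the level of each gene gave the same order for most of the list. The RNA levels come from loess-normalized channels set to a common scale by the method Aquantile, and they are fluorescence brightnesses on a linear scale that may be compared between RNAs for 1 gene but not between genes. In 28 of the 33, vehicle was highest, followed by Sox9-deleted of the genotype array, Sox9-deleted of the treatment array and wild-type, an order found in 5.80% of all genes. The 5 exceptions were Casq2, Ckm, Myh3, Myl4 and Tnnt2. In Actn2, Myod1 and Ryr1, which are counted among the 28, both of the lower RNAs were not well above background, so their order there has no meaning. Others of the 28 had the order by very small gaps. The Sox9-deleted RNAs differed by 0.01 on the log2 scale in Actc1 and Ldb3. The 2 lower RNAs read 98.6 and 97.5 in Neb and 95.0 and 94.8 in Cacna1s. The order of the Sox9-deleted RNAs also depends on scaling between arrays. With median centring their difference over all genes was 0.21 in place of 0.02. Vehicle exceeded wild-type, which was never on the same array but carried the same dye, by at least 2-fold in 23 of the 33, beside 1.86%, and by at least 4-fold in 14, beside 0.328%. The median log2 difference of vehicle minus wild-type was 1.73 (range -0.33 to 4.69), beside -0.01 over all genes.

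For the muscle genes, the 2 Sox9-deleted RNAs were closer to each other than vehicle was to wild-type. Their log2 difference, genotype array minus treatment array, had a median of 0.19 over the 33 (range -0.08 to 0.69), beside 0.02 over all genes. Of the 33, 0 were 2-fold apart, as were 0.0197% of all genes, and 31 were higher on the genotype array, beside 59%. Tnnc2 was farthest apart at 0.69, with Myh1 at 0.63, Myh8 at 0.60 and Myl1 at 0.60. These 4 genes were also among those with the widest gap between vehicle and wild-type. Myh3 and Myl4 had wide gaps there too, of 2.85 and 2.64, but only -0.08 and -0.06 between the Sox9-deleted RNAs. The offset draws both gaps toward 0 in dim probes, and a link between the gaps was not tested.

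**Figure D2:**
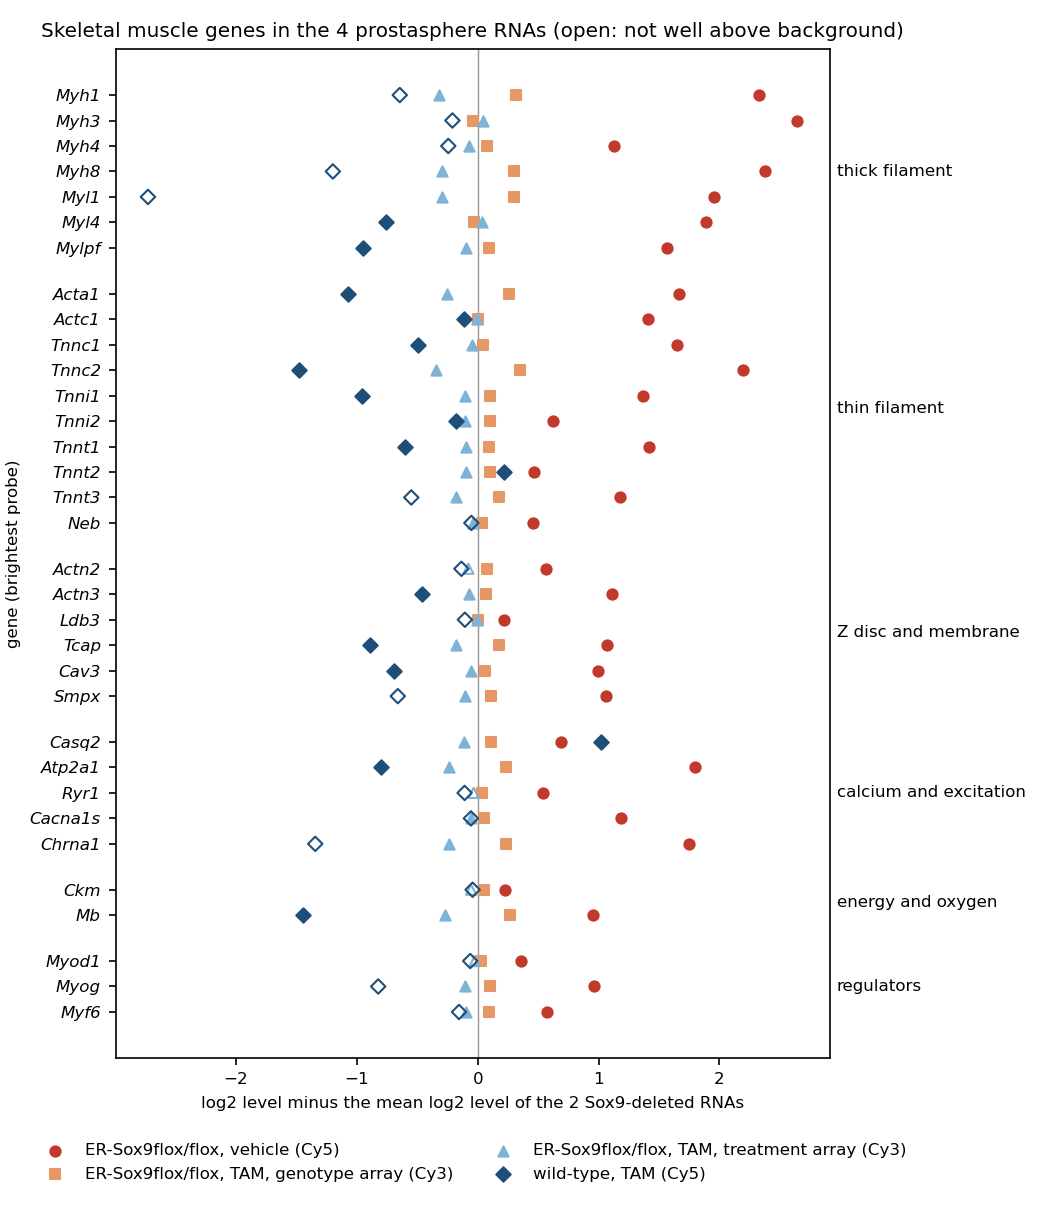
Log2 level of 33 muscle genes in each of the 4 RNAs (x axis, relative to the mean log2 level of the 2 Sox9-deleted RNAs of the same gene), with genes in rows by role; filled symbols are well above background and open symbols are not. Vehicle (red circles) lies right of both Sox9-deleted RNAs in every row, and wild-type (blue diamonds) lies left of both or close to them except for Casq2 and Tnnt2.

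Thick filament genes had the largest median treatment ratio of the groups of genes. Where 4 brightnesses follow each other without names, they are those of wild-type, Sox9-deleted of the genotype array, Sox9-deleted of the treatment array and vehicle, in this order. All 7 that passed were at least 2-fold higher in vehicle than in Sox9-deleted RNA, with a median log2 ratio of 2.26, and 3 of the 7 were at least 2-fold lower in wild-type, with a median of -0.96. Myl1, a fast alkali light chain, had a brightness of 120 in wild-type, 979 in Sox9-deleted of the genotype array, 3094 in vehicle and 647 in Sox9-deleted of the treatment array. Wild-type was not well above background, so Sox9-deleted exceeded it by at least 8.15-fold and vehicle exceeded it by at least 25.8-fold, and vehicle exceeded its own Sox9-deleted partner by 4.78-fold. This was the largest drop in wild-type and the largest gap between vehicle and wild-type of the list. A second, dimmer Myl1 probe gave log2 ratios of -0.69 and 1.64 on the genotype and treatment arrays.

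Myh8, the perinatal myosin heavy chain, read 127 in wild-type, 359 and 237 in the Sox9-deleted RNAs of the genotype and treatment arrays, and 1512 in vehicle. Its log2 ratios were -1.50 and 2.67, close to the treatment ratios of Myh1 and Myh3. Wild-type was again not well above background, and vehicle exceeded it by at least 11.9-fold. The 3 other Myh8 probes, which lie elsewhere in the gene, did not pass the filter and did not show these ratios. They gave genotype ratios of 0.01, -0.04 and -0.01 and treatment ratios of -0.08, 0.42 and 0.17, and the mean over the probes gave -0.39 and 0.79.

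Embryonic Myh3 was brightest in vehicle by a wide margin and, like Myh8, was well above background in both Sox9-deleted RNAs but not in wild-type. Its brightness was 665 in vehicle against 110 in Sox9-deleted of the same array, 104 in Sox9-deleted of the genotype array and 92.2 in wild-type. The log2 ratio was 2.60 in the treatment comparison and -0.17 in the genotype comparison, where wild-type gives only a bound and the scanner software's processed signals gave -2.76. A second Myh3 probe gave 459 in vehicle and was well above background there alone, with a treatment log2 ratio of 2.34.

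Among the adult fast chains, Myh1 read 111 in wild-type, 216 and 139 in the Sox9-deleted RNAs of the genotype and treatment arrays and 872 in vehicle, with log2 ratios of -0.96 and 2.65. Wild-type was not well above background, so Sox9-deleted exceeded it by at least 1.95-fold. Of the other Myh1 probes, 1 gave -0.10 and 0.84 and 1 was not well above background in any RNA, with -0.08 and -0.04, and the mean over the probes gave -0.38 and 1.15. Myh4 was seen at 103, 129, 116 and 267, with ratios of -0.32 and 1.20. Myh2, another fast chain, reached 112 in vehicle and was not well above background elsewhere, with a ratio of 0.29. The slow chain Myh7 likewise was well above background in vehicle alone, at 164 against 89.9 in its Sox9-deleted partner, a ratio of 0.87. The alkali light chain Myl4, an embryonic and atrial form, read 134 in wild-type, 222 and 232 in the Sox9-deleted RNAs and 839 in vehicle, with ratios of -0.73 and 1.85. Its other probe gave -0.76 and 1.91. Mylpf, the fast regulatory light chain, read 161, 333, 291 and 922, with ratios of -1.05 and 1.67.

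**Figure D3:**
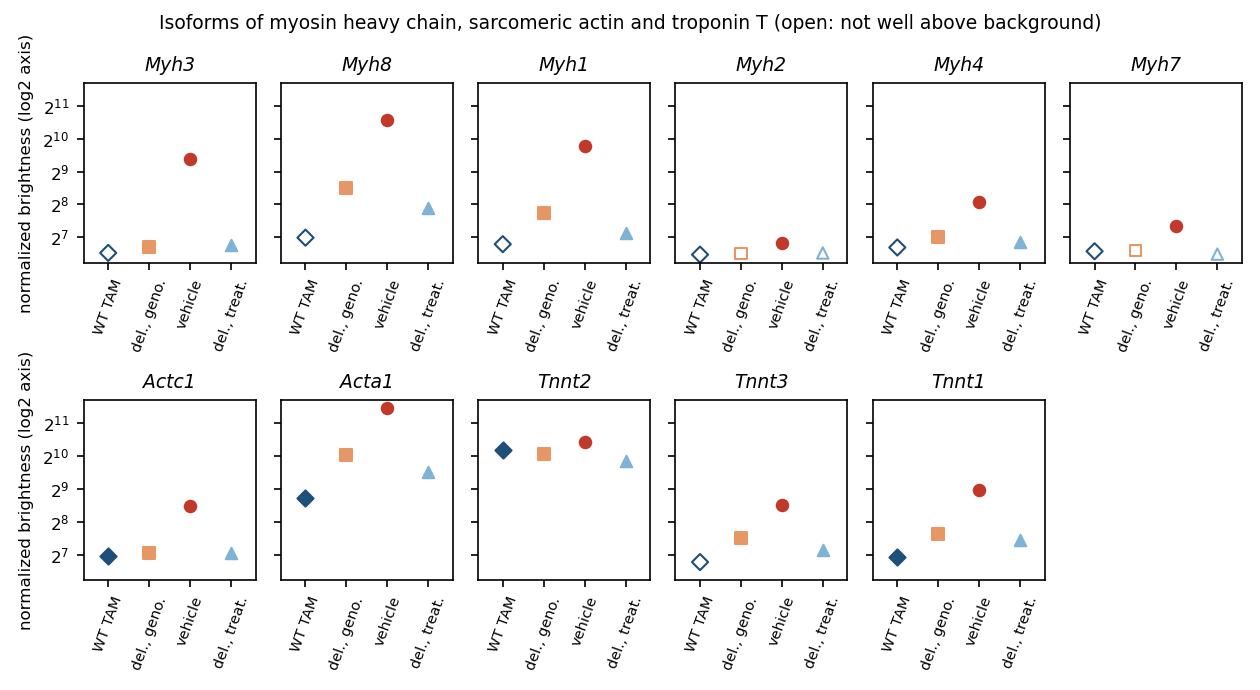
Normalized brightness (y axis, log2 scale) of 6 myosin heavy chain, 2 sarcomeric actin and 3 troponin T genes in the 4 RNAs (x axis: wild-type with TAM, Sox9-deleted of the genotype array, vehicle, Sox9-deleted of the treatment array); open symbols are not well above background. Vehicle is highest for all 11 genes, Myh8, Acta1 and Myh1 step up from wild-type through the Sox9-deleted RNAs, and Myh3 and Actc1 lie near 1 level in the other 3 RNAs.

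Thin filament genes were brighter than background more often, with 8 of 10 seen in all 4 RNAs. Acta1 read 418 in wild-type, 1050 and 737 in the Sox9-deleted RNAs of the genotype and treatment arrays and 2783 in vehicle. Its log2 ratios were -1.33 and 1.92, so that vehicle stood 6.66-fold above wild-type. Actc1, the cardiac actin that is also the fetal form of skeletal muscle, read 123 in wild-type, 134 and 133 in the Sox9-deleted RNAs and 354 in vehicle. Its 3 other RNAs thus lay together and vehicle stood out, with ratios of -0.12 and 1.41.

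Fast troponin C, Tnnc2, read 127 in wild-type, 451 and 279 in the Sox9-deleted RNAs and 1619 in vehicle, with log2 ratios of -1.83 and 2.54. Slow troponin C, Tnnc1, read 161, 235, 220 and 714, with ratios of -0.54 and 1.70. Both troponin C genes had the same order of the RNAs, with a wider range in the fast one. Slow troponin I, Tnni1, read 138, 287, 249 and 689 (ratios -1.06 and 1.47). Fast troponin I, Tnni2, was well above background in every RNA at 896, 1086, 943 and 1561, and its ratios were only -0.28 and 0.73. Slow troponin T, Tnnt1, read 123, 199, 175 and 498 (ratios -0.70 and 1.51), and fast Tnnt3 read 109, 181, 141 and 362 (ratios -0.73 and 1.36).

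Tnnt2 did not follow the rest. Its brightness was 1154 in wild-type, 1064 and 928 in the Sox9-deleted RNAs and 1370 in vehicle, with log2 ratios of 0.12 and 0.56, so wild-type was above both Sox9-deleted RNAs. Tnnt2 and Tnnt3 thus had ratios of opposite sign in the genotype comparison, read by the probes printed above. A second, dimmer Tnnt2 probe gave ratios of 0.09 and 0.01. Nebulin, Neb, the ruler of the thin filament, was dim throughout at 97.5, 104, 98.6 and 139, with ratios of -0.09 and 0.49.

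Of the Z disc, titin and membrane genes, 6 of 7 passed, with median log2 ratios of -0.64 in the genotype and 1.11 in the treatment comparison. Tcap, which caps titin at the Z disc, read 126 in wild-type, 264 and 206 in the Sox9-deleted RNAs and 489 in vehicle (ratios -1.07 and 1.24). Fast alpha-actinin, Actn3, read 118, 169, 154 and 350 (ratios -0.53 and 1.18). Cav3, the caveolin of muscle membranes, read 116, 195, 180 and 374 (ratios -0.75 and 1.06), and the small muscle protein gene Smpx read 102, 174, 150 and 337 (ratios -0.77 and 1.17). These 4 had the same order in the RNAs. Actn2 and Ldb3, both Z disc genes, had smaller treatment ratios of 0.64 and 0.23. Ttn, the giant spring of the sarcomere, reached 125 in vehicle and was not well above background elsewhere, with a ratio of 0.39.

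Calcium handling and excitation genes divided. Atp2a1, the fast calcium pump of the sarcoplasmic reticulum, read 224 in wild-type, 457 and 331 in the Sox9-deleted RNAs and 1353 in vehicle, with log2 ratios of -1.03 and 2.03. Chrna1, the alpha subunit of the acetylcholine receptor at the nerve-muscle junction, read 120, 357, 258 and 1022, with ratios of -1.58 and 1.99. Wild-type was not well above background for Chrna1, which was at least 2.99-fold higher in Sox9-deleted RNA. Cacna1s, the voltage sensor of the calcium release machinery, stood above the other RNAs in vehicle only, at 224 against 94.8 in wild-type and 102 and 95 in the Sox9-deleted RNAs. A second Cacna1s probe was not well above background in any RNA, vehicle included, with ratios of -0.03 and -0.06. Ryr1, the calcium release channel, read 141 in vehicle and between 89.7 and 98.9 in the other RNAs. Chrnd, the delta subunit of the receptor, was well above background in vehicle alone at 107, with a ratio of 0.17.

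Casq2, which encodes the calcium-binding calsequestrin of cardiac and slow muscle, had the opposite pattern in wild-type. It read 502 in wild-type, 267 and 228 in the Sox9-deleted RNAs and 399 in vehicle, with log2 ratios of 0.91 and 0.81. It was the only one of the 33 that was higher in wild-type than in vehicle, by 0.33 on the log2 scale. Both Sox9-expressing RNAs therefore exceeded the Sox9-deleted RNAs for Casq2 and for Tnnt2, as for no other gene of the 33.

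Both energy and oxygen genes passed. Myoglobin, Mb, the oxygen store of muscle, read 131 in wild-type, 431 and 296 in the Sox9-deleted RNAs and 692 in vehicle, with log2 ratios of -1.71 and 1.22. Its ratio was larger in the genotype than in the treatment comparison, as for Myl1. Ckm, the muscle creatine kinase, which buffers ATP, was dim, at 92.4, 98.7, 91.6 and 111, with ratios of -0.10 and 0.28.

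Fewer of the myogenic regulators than of the structural genes passed, and their signals were dim. Of the 6, 3 passed, with median log2 ratios of -0.25 and 0.67, beside -0.71 and 1.30 over the 30 structural genes that passed, and 1 of the 3 was past 2-fold on the treatment array. Wild-type was not well above background for any of the 3, so their genotype ratios are bounds, and with the scanner software's processed signals the genotype medians turned in order, to -3.58 over the regulators and -2.58 over the structural genes. Myog, which drives the last step into fibres, read 109 in wild-type, 208 and 180 in the Sox9-deleted RNAs and 377 in vehicle. Its ratios were -0.92 and 1.06, and the SD between its 10 spots was 0.0273 on the genotype and 0.0550 on the treatment array. Myod1, which commits cells to the muscle lineage, was close to background at 93.8, 99.6, 96.3 and 126, with ratios of -0.09 and 0.39 and spot SDs of 0.0435 and 0.0571. Myf6, a regulator of late differentiation and mature fibres, read 99.2, 118, 104 and 165 (ratios -0.25 and 0.67).

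Mef2c, a partner of the myogenic regulators, reached 130 in vehicle and was not well above background elsewhere, with a ratio of 0.49. Myf5 lay between 85.4 and 88.0 and Pax7 between 86.9 and 91.5 in the 4 RNAs, both not well above background in any. In Myog and Myf6, vehicle was highest and Sox9-deleted RNA of both arrays exceeded a wild-type level near background, and the precursor markers were not detectable on these arrays. None of the 6 regulators was well above background in wild-type, and structural genes and regulators were not tested against each other.

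Embryonic and adult forms were both high in vehicle. The 5 embryonic or perinatal forms (Actc1, Myh3, Myh8, Myl4 and Tnnt2) had median log2 ratios of -0.17 in the genotype and 1.85 in the treatment comparison. Of 8 adult forms (Acta1, Myh1, Myh2, Myh4, Myh7, Myl1, Tnnt1 and Tnnt3), 6 passed, with medians of -0.85 and 1.72. All 6 adult forms that passed had the order from vehicle to wild-type described above, and 2 of the 5 embryonic forms had it. Myh2 and Myh7, which did not pass, did not have it. The counts turn on small gaps between the Sox9-deleted RNAs. Actc1 had the order by 0.01 on the log2 scale, and Myh3 and Myl4 missed it by 0.08 and 0.06. The median difference between the Sox9-deleted RNAs was 0.44 over the adult forms and 0.01 over the embryonic ones. Of 8 fast forms (Actn3, Atp2a1, Myh1, Myh2, Myh4, Tnnc2, Tnni2 and Tnnt3), 7 passed, with medians of -0.73 and 1.36. Of 5 slow forms (Casq2, Myh7, Tnnc1, Tnni1 and Tnnt1), 4 passed, with medians of -0.62 and 1.49. The fast list left out the fast light chains Myl1 (-3.03 and 2.26) and Mylpf (-1.05 and 1.67). The slow list held Casq2 (0.91 and 0.81), which had the opposite pattern in wild-type. The order of the fast and slow medians therefore depends on which genes are listed. The lists are short and share genes, and the differences between them were not tested.

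Different probes of a gene did not always give the same ratio. Of the 10 genes past 2-fold in opposite directions, 5 had further probes, and none of these was 2-fold lower in wild-type. The second probes of Atp2a1, Chrna1 and Tnni1 gave genotype log2 ratios of -0.38, -0.13 and -0.71 and treatment ratios of 1.23, 0.83 and 1.43. Their direction was that of the brightest probes, whereas the other probes of Myh8 were near background and had ratios on both sides of 0. When all probes of a gene were averaged, the genes past 2-fold in opposite directions numbered 6 in place of 10.

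Of a wider list of 126 muscle genes that share no gene with the 40, 125 were on the array and 87 passed. In these, 2 were at least 2-fold lower in wild-type, beside 1.08% of all genes. In vehicle, 9 were at least 2-fold higher, beside 1.73%, and 1 was at least 2-fold lower, beside 0.374%. The median log2 ratios were -0.15 and 0.28. Myom2, which links thick filaments at the M band, had ratios of -1.03 and 1.90, with brightnesses of 116 in wild-type, 237 and 221 in the Sox9-deleted RNAs and 823 in vehicle. Eno3, the muscle enolase, had -1.09 and 1.48, at 337, 716, 570 and 1591. Mybph, a myosin-binding protein, had -0.89 and 1.71, and Lmod3, which nucleates thin filaments, had -0.64 and 1.16. Pdlim3, a Z disc protein, had -0.73 and 1.1. Cox6a2 and Pgam2, muscle forms of a respiratory chain subunit and of a glycolytic enzyme, had -0.90 and 1.23 and -0.66 and 0.90. Chrng, the embryonic gamma subunit of the acetylcholine receptor, had -0.44 and 1.37.

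The imprinted genes H19 and Cdkn1c, both on the wider list, had ratios of -0.84 and 1.29 and of -0.20 and 1.61. These 10 were chosen as the genes of the wider list with the widest gap between arrays. The wider list as a whole moved less than the 33 genes. Of its 87 genes, 50 were below 0 on the first array and above 0 on the second, beside 18.7% of all genes.

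Markers of other cell types were read in the same RNAs. Fibroblast genes moved with the muscle genes, and all 10 passed, with medians of -0.74 and 0.66. Of the 10, 9 were below 0 in the genotype and above 0 in the treatment comparison, beside 18.7% of all genes. The summed brightness of the 10 was 30392 in wild-type, 54580 and 47609 in the Sox9-deleted RNAs and 80765 in vehicle. Col3a1 read 2054, 6337, 4969 and 10880 (ratios -1.63 and 1.13), Col1a1 read 2117, 5073, 4378 and 8959 (ratios -1.26 and 1.03), and both were past 2-fold in opposite directions. The brightest fibroblast gene, Col1a2, read 10630, 19000, 15030 and 31650 (ratios -0.84 and 1.07). Over the 40 muscle genes the summed brightness was 7039 in wild-type, 11027 and 8986 in the Sox9-deleted RNAs and 25515 in vehicle. This sum also holds the signal of probes not well above background, as only 16 of the 40 were above it in wild-type. Smooth muscle genes had medians of -0.18 and 0.63 over 11 genes, with 9 of 11 in the opposite directions, and a summed brightness of 16016, 22318, 24861 and 36189. Tagln, a smooth muscle actin-binding gene, read 6941, 11380, 13170 and 15520.

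Of 12 cardiac markers, 5 passed, and Myh6, Myl2, Nkx2-5, Gata4 and Ryr2 were well above background in no RNA. Of the 5, 0 were below 0 in the genotype and above 0 in the treatment comparison, beside 18.7% of all genes. With so few genes this count cannot be told from that share. The 5 were dim, from 96.7 (Nppa in vehicle) to 167 (Nppb in wild-type), where the offset draws ratios toward 0. The median ratios were 0.07 and -0.09. Epithelial markers, all 9 above background in every RNA, had medians of 0.01 and -0.32. Of the 9, 0 had the signs of the muscle genes, beside 18.7% of all genes, and with 9 genes this count also cannot be told from that share. Their summed brightness was 402487 in wild-type, 238731 and 279588 in the Sox9-deleted RNAs and 329032 in vehicle. This sum is weighted by its brightest probes and does not measure the amount of epithelium. Krt14 read 134300, 32000, 30370 and 110000, and Krt5 read 103200, 23580, 23980 and 90330. Krt18 went the other way on both arrays, at 57310, 69520, 87880 and 43500. Of the 9, 4 were higher in both Sox9-expressing RNAs (Epcam, Krt5, Krt14 and Trp63) and 4 were lower in both (Cdh1, Cldn4, Cldn7 and Krt18). The shares of all genes with these signs were not computed. The brightest, Krt8, had ratios of 0.01 and -0.74. Endothelial Pecam1 and Tek and the immune genes Ptprc and Cd3e were not well above background in any RNA, whereas 4 of 6 genes of each list were above it in all 4 RNAs. Emcn, the brightest endothelial gene, had the signs of the muscle genes, at 599, 776, 1025 and 1296 (ratios -0.38 and 0.34). Lyz2, the brightest immune gene, read 1451, 2708, 3524 and 3185 (ratios -0.90 and -0.15), so vehicle was 2.19-fold above wild-type. Medians were -0.25 and -0.13 over 4 endothelial, -0.34 and -0.13 over 4 immune and -0.05 and 0.10 over 5 neural genes. The part of fibroblast or smooth muscle cells in the muscle values was not tested.

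**Figure D4:**
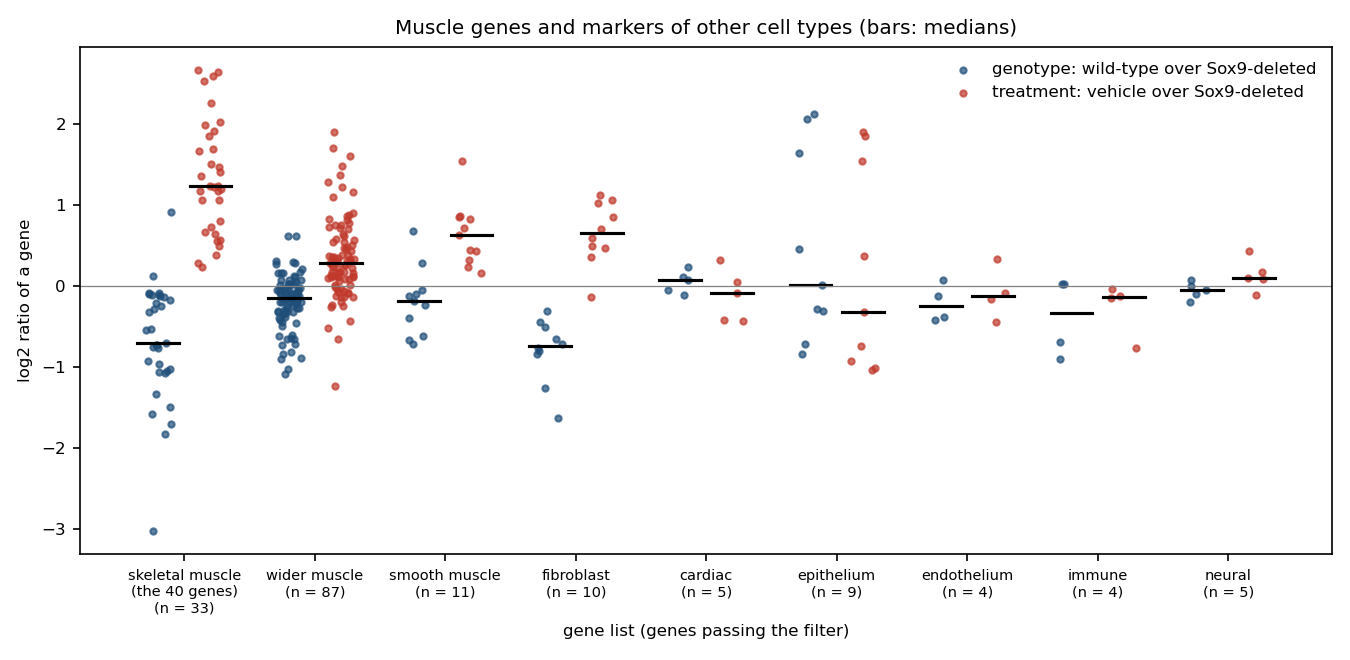
Log2 ratio of each gene (y axis) on the genotype array (blue) and the treatment array (red) for the skeletal muscle genes, a wider muscle list and markers of 7 other cell types (x axis), with genes that passed the filter as points and medians as bars. The medians of the skeletal muscle, wider muscle, smooth muscle and fibroblast lists, and by a small margin the neural list, lie below 0 on the genotype array and above 0 on the treatment array, and those of the other 4 lists do not.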

How the data were processed

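Expression was measured on 2 two-color Agilent whole mouse genome arrays of 1 slide, with 1 array per comparison and no dye swap. The authors deposited scanner files with mean spot intensity and median local background intensity per channel, which Agilent Feature Extraction 10.5.1.1 had not corrected, with processed intensities and their log10 ratio of Cy5 over Cy3, which the software background-corrected and dye-normalized per the file headers. The authors also deposited a table of log2 ratios, whose slope on the log10 ratio was 3.121 and 3.14 and whose medians were -0.0099 and -0.0034. The submitters' processing notes name limma, and the steps behind that table are not given in the sources used here.

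Mean intensities were corrected with normexp (offset 50), outlier spots (126 and 130) were left out, loess was run within each array, and control spots (1639 of 45018) were removed, in limma 3.58.1 and R 4.3.3. Spots of a probe were averaged, and RNA levels were set to a common scale with Aquantile. In each RNA, 53.91% to 56.23% of probes were well above background and 0 spots were saturated. The number of arrays limits the precision. A gene passed if its brightest probe was well above background in at least 1 RNA of each array. Ratios are Cy5 over Cy3. The offset draws ratios of dim probes toward 0. Where the dim RNA was not well above background, a fold is given as at least the measured one, since the probe's own level was above the lowest level marked well above background.

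The 40 genes, the wider list and the marker lists were chosen with earlier results of these data known. All 40 were accounted for. From the wider list the 10 genes with the widest gap between arrays were named, and of other cell types the brightest or, for collagens, those past 2-fold in opposite directions. Further marker genes were named after their values were seen. No test was run on the members. The normalization was tested with known changes put into the real Cy5 signals of a set of brighter probes. That test did not cover dim probes. Alternatives were offset 10, no background subtraction, median centring, the scanner software's processed signals, the deposited log2 table, the mean over probes, 3 other filters, a fold of 1.5 and quantile normalization over the 4 channels. Tables were made with pandas 2.3.3. Promoters were taken from RefSeq.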

Additional observations from a re-analysis of the deposited data

Results flagged for a closer look

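The 10 muscle genes past 2-fold in opposite directions on the arrays were marked because the only array of each contrast moved the opposite way. The treatment minus genotype difference of log2 ratios was 5.28 for Myl1, 4.37 for Tnnc2, 4.17 for Myh8, 3.57 for Chrna1, 3.25 for Acta1, 3.07 for Atp2a1, 2.94 for Mb, 2.71 for Mylpf, 2.53 for Tnni1 and 2.31 for Tcap. The difference was not tested, since each contrast was 1 array, and these genes were chosen with such values known. The Sox9-deleted RNAs under both ratios differed by at most 0.69 in these genes.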

How the results depend on the processing

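No ratio of the 33 genes changed sign under another background correction, normalization or signal, on either array. The sizes moved, and so did the shares over all genes. The number with a 2-fold lower level in wild-type, and the number past 2-fold in opposite directions, was 10, and became 18 without background subtraction, 28 with the scanner software's processed signals, 18 with the deposited table, 6 with the mean over probes and 17 at a fold of 1.5. The share of all genes lower in wild-type was 1.08% and became 1.99%, 6.92%, 2%, 0.833% and 3.5% in the same order. The share past 2-fold in opposite directions was 0.118% and became 0.276%, 0.696%, 0.282%, 0.0656% and 0.499%. Both counts were 13 with offset 10, beside 1.35% and 0.184% of all genes. With the filter for all 4 RNAs both were 7 of 16, beside 1.14% and 0.107%. The number with a 2-fold higher level in vehicle was 23, and became 13 with the filter for all 4 RNAs, which 16 genes passed (1.73% of all genes, as before). It was 30 with the processed signals (4.05% of all genes), 26 with offset 10 (2.54%) and 26 with median centring (7.3%). The highest treatment ratio belonged to Myh8 with the settings used and with median centring, to Tnnc2 with the mean over probes and to Myh3 with the other settings.

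The genotype median of -0.70 became -0.89 with offset 10, -1.26 without background subtraction, -2.65 with the processed signals, -1.25 with the deposited table, -0.53 with the mean over probes and -0.30 without a filter. The treatment median of 1.24 became 1.65 with offset 10, 1.42 without background subtraction, 1.67 with median centring, 2.03 with the processed signals, 1.40 with the deposited table, 1.17 with the mean over probes, 1.36 with the filter for 1 dye on both arrays, 1.44 with the filter for all 4 RNAs and 1.18 without a filter. Median centring also moved the median of all genes in the treatment comparison to 0.42. The difference of the Sox9-deleted RNAs, 0.19, became 0.31 with offset 10, 0.33 without background subtraction and 0.40 with median centring. The causes of these moves were not tested.

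No paired analysis was possible because each comparison was 1 array, and leaving out an array was not possible for the same reason. Probes near background limit the ratios of Actn2, Cacna1s, Ckm, Ldb3, Myf6, Myod1, Neb and Ryr1, among others. They also limit the genotype ratio wherever wild-type was not well above background, as for Myh3.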

Other observations

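Outside the muscle lists, 6 genes were also at least 2-fold lower in wild-type and at least 2-fold higher in vehicle. Besides Col1a1 and Col3a1, they were Serpina3n, a secreted protease inhibitor (log2 ratios -1.48 in the genotype and 1.19 in the treatment comparison), Dio3, the deiodinase that inactivates thyroid hormone (-1.25 and 1.45), Fbln2, a matrix fibulin (-1.12 and 1.07), and Fndc1 (-1.0 and 1.03). With the 10 genes of the list, Eno3 and Myom2, they make up the 18 genes with this pattern among 15228.

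Clcn1, the chloride channel of the muscle membrane, was among 15 of the 87 genes of the wider muscle list that were lower in both Sox9-expressing RNAs. It read 191 in wild-type, 337 and 503 in the Sox9-deleted RNAs and 214 in vehicle, with log2 ratios of -0.82 and -1.23. Hspb8, a small heat shock protein, had -0.60 and -0.52, and Chrnb1, the beta subunit of the acetylcholine receptor, had -0.49 and -0.66. Another 18 genes of the list were higher in both Sox9-expressing RNAs. The shares of all genes with the same sign on both arrays were not computed, so the counts of 15 and 18 have no comparison. The genes named here were chosen after their values were seen.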
